A study of Mus musculus with 4 samples.

Results

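The 9 genes described here encode sensors of DNA and RNA in the cytosol and the proteins that carry or limit their signal. They were taken by symbol from the 31053 genes of the deposited feature table. Mb21d1 (the older symbol of Cgas) makes the enzyme cGAS, which binds double-stranded DNA and produces the messenger cGAMP. Tmem173 encodes STING, the cGAMP receptor of the endoplasmic reticulum, and Tbk1 and Irf3 encode the kinase and the transcription factor that STING engages. Trex1 degrades cytosolic DNA and so limits cGAS activity. Mavs is the mitochondrial adaptor of the RNA sensors RIG-I and MDA5. Aim2 starts an inflammasome on DNA, Ddx41 is a helicase proposed as a DNA sensor, and Ifi204 is a mouse PYHIN protein proposed to act upstream of STING. In cancer the pathway matters because damaged or micronuclear DNA can reach cGAS, and because STING in tumour cells and in immune cells can induce type I interferons and chemokines.

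The samples were whole perfused lungs of mice that had received small cell lung cancer (SCLC) cells orthotopically, digested and sorted for live cells on DAPI, and profiled with 10x 3' tags. Control mice were given vehicle together with isotype IgG. A second group received anti-PD-1 (clone 29F.1A12, 200 µg/mouse, on Monday, Wednesday and Friday), an antibody against an inhibitory T cell receptor, and another received YKL-5-124 (10 mg/kg on weekdays), an inhibitor of the kinase CDK7. The combination group received both. The labels do not give the tumour line, the mouse strain, age, sex or the number of animals in a library. Each group has 1 library, so no treatment difference has a replicate error. Where 4 values follow one another below, the first is the control library, then anti-PD-1, next YKL-5-124 and last the combination, and 3 ratios to control keep that order.

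The libraries held 17329001 to 22950622 unique molecular identifiers (UMIs), and the filters kept 2676 to 4014 cells in each, 13985 in all, with library medians of 1913 to 2193 UMIs per cell. Cells were clustered without the 9 genes and without the pathway lists used below. Of the 27 clusters, 2 were tumour-like (2032 cells, median 9482 UMIs). They carried SCLC markers such as Chga and Calca, at a summed level of 4866 to 5581 CPM in the 4 libraries (CPM, the UMIs of a gene per 1000000 UMIs of the class), and all 10 markers reached 10 CPM in each. The other classes compared were T cell-like (2605 cells), B cell-like (2241), monocyte- or macrophage-like (1745), NK cell-like (1229) and neutrophil-like (1016). In the tumour-like cells the summed markers of those classes were at 17.9 to 51.5 CPM (T), 7.45 to 27.9 (NK), 47.7 to 57.6 (B), 35.9 to 78.2 (monocyte or macrophage) and 23.2 to 115 (neutrophil).

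The libraries shared cell barcodes. Of the 13985 cells, 2164 (15.5%) had a barcode that was also kept in another library. These cells formed 2803 pairs, and 1277 pairs (45.6%) fell in the same class. The class shares of all 13985 cells give 13.8%. Cells with a shared barcode had another mix of classes, with 1423 unnamed, so 13.8% is not the share to set beside their pairs. A share from their own mix was not computed. Among tumour-like cells 597 (29.4%) had such a barcode, with a median of 30345 UMIs, against 7394 for the other tumour-like cells. An unnamed cluster of shallow cells (cluster 1, 1574 cells, median 850 UMIs, led by cardiac and haemoglobin genes) held 1403 of them (89.1% of the cluster). Its summed tumour markers were at 4157 to 4709 CPM. The source of the shared barcodes was not tested, and results are given with all cells and with these 2164 cells left out, which leaves 11821.

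Mb21d1 was highest in tumour-like cells and Aim2 nearly undetected there, so their promoters are shown. The windows run from 250 bases before to 50 after the RefSeq gene start (GRCm38.p6), at chr9:78443188-78443487 on the minus strand for Cgas and chr1:173420354-173420653 on the plus strand for Aim2. The Aim2 window lies inside the GENCODE M21 span of that gene (chr1:173350879-173466040, plus) and not at the start of the span. Capitals mark matches to GGGCGG (the GC box) and GAGGAAGT (a PU.1-type ETS motif), searched on both strands with their reverse complements CCGCCC and ACTTCCTC. Cgas has no match and hence no capitals.

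Cgas: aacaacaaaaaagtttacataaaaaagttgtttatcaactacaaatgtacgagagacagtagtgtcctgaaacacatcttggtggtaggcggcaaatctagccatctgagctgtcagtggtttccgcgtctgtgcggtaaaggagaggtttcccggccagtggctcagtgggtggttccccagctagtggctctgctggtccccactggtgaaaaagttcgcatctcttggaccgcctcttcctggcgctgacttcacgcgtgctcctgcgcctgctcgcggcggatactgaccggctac

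Aim2: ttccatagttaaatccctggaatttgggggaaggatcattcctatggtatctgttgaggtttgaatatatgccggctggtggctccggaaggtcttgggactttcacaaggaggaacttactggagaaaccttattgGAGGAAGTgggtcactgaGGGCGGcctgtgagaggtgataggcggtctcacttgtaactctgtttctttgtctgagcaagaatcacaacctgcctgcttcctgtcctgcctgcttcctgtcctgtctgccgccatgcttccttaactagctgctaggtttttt

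GGGCGG is found in 35.7% and GAGGAAGT in 3.20% of all 32851 RefSeq promoters of this length. Also searched on both strands were GAAA followed after 2 bases of any kind by GAAA (interferon-response type, 3.44% of promoters) and CAGCTG (an E-box, its own reverse complement, 16.3%). Neither has a match in the 8 windows found for 7 of the members. The Cgas window holds 16 CpG dinucleotides and the Aim2 window 5, against a median of 7 over all promoters. The GC-box letters occur 3 times each in the Tbk1 and Mavs windows and once in that of Irf3. Of the 2 Trex1 windows 1 holds a single match each to GGGCGG and GAGGAAGT, as the Aim2 window does, and the Cgas and Ddx41 windows hold none of the 4 motifs. A match is a description of letters and not a binding site. Ifi204 and Tmem173 had no entry.

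In the GENCODE M21 annotation (GRCm38) Mb21d1 spans chr9:78430526-78443237 (minus), Tbk1 chr10:121546455-121586787 (minus), Irf3 chr7:44997648-45002848 (plus), Trex1 chr9:109057933-109059734 (minus), Mavs chr2:131234063-131248025 (plus), Aim2 chr1:173350879-173466040 (plus), Ddx41 chr13:55530410-55536658 (minus) and Ifi204 chr1:173747293-173766943 (minus), and Tmem173 lies on chromosome 18. All 9 are protein-coding. All 1147 annotated exon bases of Trex1 lie within exons of Atrip on the same strand. Ddx41 shares 467 of 2687 exon bases (17.4%) with the antisense gene Gm46416, and the sources used here do not say whether counting used strand.

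Tumour-like cells were compared with each of the 5 other classes on UMIs summed per class and library, with the library as the unit (4 libraries) and as a term of the model. edgeR's quasi-likelihood test was used, and a gene was called at a Benjamini-Hochberg adjusted p under 0.05 over the 11234 genes tested together with at least a 2-fold difference. All classes entered a single fit that shares the spread. Each library is another treatment. The library term takes up what all classes share, so the spread that remains includes treatment differences that vary between classes. The log2 differences rest on TMM scaling. Without it the median over all genes moves up by 0.69 against B cell-like cells, 0.82 against monocyte- or macrophage-like, 1.36 against neutrophil-like, 0.49 against NK cell-like and 0.67 against T cell-like cells, so a log2 difference can be lower than the ratio of the CPM values printed beside it. Of the 9 genes 8 were tested, and Trex1 had no UMI.

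**Figure D1:**
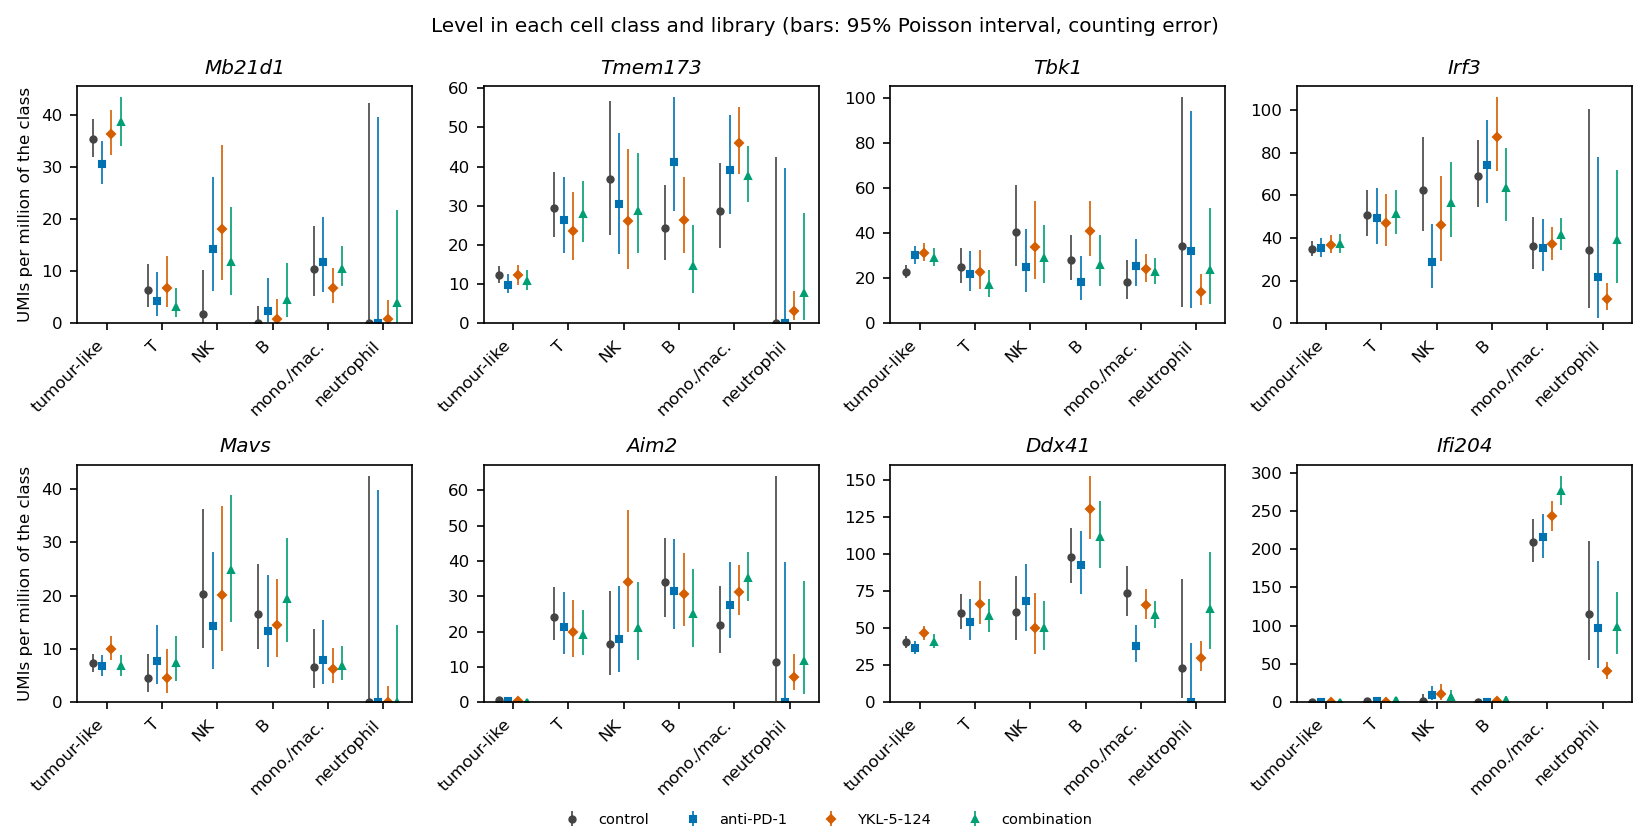
Level of each gene, except Trex1 with 0 UMIs, in 6 cell classes (x axis) as CPM (y axis, linear, a different range in each panel). Each point is 1 library, marked by treatment group, and bars are 95% Poisson intervals for counting error. Mb21d1 lies at 30.7 to 38.6 in tumour-like cells and at or under 18.0 in the other classes, Aim2 is under 0.5 in tumour-like cells, and Ifi204 is at 209.7 to 275.9 in monocyte- or macrophage-like cells.

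Mb21d1 was the only one of the 8 genes that was called higher in tumour-like cells against all 5 classes. Its level in tumour-like cells was 35.5, 30.7, 36.5 and 38.6 CPM, from 215 to 381 UMIs per library, or 0.504 to 0.631 UMIs per cell. All 4 libraries exceeded every library of the other classes. The next class was NK cell-like, at 1.84, 14.3, 18.0 and 11.8 CPM, from 1 to 9 UMIs each. In monocyte- or macrophage-like cells it was at 10.5, 11.7, 6.69 and 10.5 CPM, and in T cell-like cells at 6.35, 4.24, 6.85 and 3.15 CPM. B cell-like and neutrophil-like cells held 7 and 2 Mb21d1 UMIs in all. The ranges of these 5 classes overlapped from each class to the next in order.

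By edgeR's quasi-likelihood test Mb21d1 was higher in tumour-like cells by 3.64 ± 0.38 (log2 ± SE) than in B cell-like (adjusted p = 4.5e-14), by 2.14 ± 0.25 than in T cell-like (adjusted p = 1.8e-12) and by 3.49 ± 0.70 than in neutrophil-like cells (adjusted p = 8.9e-06). The differences were smaller against NK cell-like (1.16 ± 0.29, adjusted p = 0.00024) and monocyte- or macrophage-like cells (1.12 ± 0.20, adjusted p = 8.3e-07). Those 2 lie close to the 2-fold limit, and the NK difference was 0.82 without the control library and the monocyte difference 0.93 without the YKL-5-124 library, neither of which was called. With shared barcodes left out the 5 differences were 3.87, 2.15, 3.53, 1.17 and 1.16 in the order given, all called.

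The class order was also computed at equal depth. After each cell was thinned to 800 UMIs, 2.71% of tumour-like cells had an Mb21d1 UMI (2027 of 2032 cells were deep enough), against 0.642% of monocyte- or macrophage-like cells (1714 of 1745), 0.413% of NK cell-like (1212 of 1229), 0.273% of T cell-like (2562 of 2605), 0.137% of B cell-like (2196 of 2241) and 0.109% of neutrophil-like cells (920 of 1016). Unthinned, 30.9% to 38.3% of tumour-like cells per library had one. In free RNA, taken from barcodes with 10 to 100 UMIs, Mb21d1 was at a median of 20.1 CPM, above each of the 5 non-tumour classes. It was present in both tumour-like clusters, at a median of 41.2 CPM in cluster 3 and 33.1 CPM in cluster 4, whose leading genes are mitotic (Cenpf, Top2a, Hmmr), with ranges over libraries (33.3 to 42.1 and 29.6 to 37.0) that overlap. The unnamed cluster 1 was at a median of 33.1 CPM.

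Tmem173 was lower in tumour-like cells than in 4 of the other classes. In tumour-like cells STING mRNA was at 12.3, 9.86, 12.2 and 10.8 CPM (69 to 132 UMIs). Monocyte- or macrophage-like cells were at 28.6, 39.1, 46.1 and 37.6 CPM, NK cell-like at 36.8, 30.4, 26 and 28.8 CPM, and T cell-like at 29.4, 26.3, 23.6 and 27.8 CPM. B cell-like cells ranged from 14.7 CPM in the combination to 41.3 CPM with anti-PD-1. No library of these 4 classes was as low as the highest tumour-like library, whereas the 4 classes overlapped one another.

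The edgeR difference of Tmem173 in tumour-like cells was −2.60 ± 0.15 against monocyte- or macrophage-like (adjusted p = 7.9e-28), −1.92 ± 0.17 against T cell-like (adjusted p = 4.1e-17), −1.90 ± 0.24 against NK cell-like (adjusted p = 4.6e-11) and −1.88 ± 0.20 against B cell-like cells (adjusted p = 1.5e-13). Neutrophil-like cells held 6 Tmem173 UMIs in all, and that difference (0.30 ± 0.62, adjusted p = 0.67) was not called. Free RNA held Tmem173 at a median of 26.3 CPM, above its level in tumour-like cells. The highest level outside the 6 classes was in the unnamed cluster 10 (673 cells, led by Tnfrsf4, Ctla4 and Ikzf2), at 59.2 to 76.3 CPM per library, and conventional dendritic-like cells were at 56.9 CPM over all libraries (50 UMIs). Of 2032 tumour-like cells, 736 had an Mb21d1 UMI, 310 a Tmem173 UMI and 173 both. The product of the 2 shares would give 112 cells, and both depend on the UMIs of the cell.

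Tbk1, the kinase that phosphorylates STING and Irf3, was at similar levels in all 6 classes. Tumour-like cells were at 22.8, 30.2, 31.3 and 29.2 CPM. The class medians ran from 22.4 CPM in T cell-like to 31.4 CPM in NK cell-like cells, and every class overlapped the next in order. No difference reached 2-fold, and the edgeR values lay between −0.28 ± 0.16 (T cell-like, adjusted p = 0.10) and −0.72 ± 0.17 (B cell-like, adjusted p = 9.9e-05). Their direction depends on scaling: without TMM the difference against T cell-like cells was 0.39, against monocyte- or macrophage-like 0.33 and against neutrophil-like cells 0.79.

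Irf3, the transcription factor at the end of this arm, was at 35.0, 35.4, 36.9 and 37.3 CPM in tumour-like cells. It was highest in B cell-like cells, at 68.9, 74.1, 87.6 and 63.5 CPM, with no overlap. The T cell-like level was 50.8, 49.2, 47.2 and 51.5 CPM, again above every tumour-like library. Both were called in edgeR, at −1.71 ± 0.13 (adjusted p = 1.7e-21) and −1.12 ± 0.12 (adjusted p = 1.6e-13), although the T cell difference was −0.45 without TMM and −0.82 in DESeq2 and not called there. The differences against NK cell-like (−0.91 ± 0.17), monocyte- or macrophage-like (−0.88 ± 0.13) and neutrophil-like cells (−0.33 ± 0.30) were under 2-fold. Without the shared barcodes those against NK cell-like and monocyte- or macrophage-like cells were −1.08 and −1.03 and were called. Over all alternatives these differences were −0.42 and −0.05 at the smallest. Both classes overlapped tumour-like cells in CPM (28.6 to 62.6 and 35.2 to 41.3).

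Trex1 had 0 UMIs among the 63016310 UMIs of all kept cells, which allows a level of up to 0.0476 CPM, and 0 in free RNA. Atrip, which contains all of its exons, had 1377 UMIs in the same cells. A zero for Trex1 in this table can therefore not be told apart from counting of its reads elsewhere, and no statement on its expression can be made.

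Mavs, the adaptor of the RNA arm, was low in tumour-like cells at 7.26, 6.72, 9.92 and 6.74 CPM, from 47 to 78 UMIs. NK cell-like cells were at 20.3, 14.3, 20.03 and 24.9 CPM and B cell-like cells at 16.6, 13.4, 14.5 and 19.3 CPM, each above every tumour-like library. The edgeR differences were −1.87 ± 0.28 (adjusted p = 1.2e-08) and −1.72 ± 0.25 (adjusted p = 3.5e-09). T cell-like (median of libraries 5.98 CPM) and monocyte- or macrophage-like cells (6.72 CPM) were not called different, at −0.31 ± 0.28 and −0.59 ± 0.26. Neutrophil-like cells had 0 Mavs UMIs. Against the limit of 3 UMIs over the group, 1.79 CPM, tumour-like cells (7.67 CPM over all libraries) were at least 4.29-fold higher in CPM without TMM. The edgeR call of that difference was lost without the YKL-5-124 library, with doublets kept and at clustering resolutions 0.5 and 2.

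Aim2 was nearly undetected in tumour-like cells. There were 5, 3, 3 and 1 UMIs, or 0.466, 0.429, 0.381 and 0.140 CPM. B cell-like cells were at 34.0, 31.6, 30.6 and 24.9 CPM, monocyte- or macrophage-like at 21.9, 27.4, 31.1 and 35.2 CPM, T cell-like at 24.2, 21.2, 19.8 and 18.9 CPM, and NK cell-like at 16.6, 17.9, 34.1 and 20.9 CPM. All 16 of these values lay far above the tumour-like ones, and each class overlapped the next in order of median. The edgeR differences of tumour-like cells were −6.94 ± 0.26 to −6.16 ± 0.40 against these 4 classes and −5.52 ± 0.69 against neutrophil-like cells, with adjusted p from 6.9e-40 to 3.7e-11. Free RNA held Aim2 at a median of 18.7 CPM, so the tumour-like level was also far below that of free RNA.

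Ifi204, of the same gene family, marked the myeloid classes. Monocyte- or macrophage-like cells were at 209.7, 216.2, 242.9 and 275.9 CPM, from 220 to 815 UMIs. Neutrophil-like cells were at 115, 97.0, 40.2 and 97.7 CPM, below all monocyte libraries and above all those of the other classes. Tumour-like cells had 2, 0, 3 and 2 UMIs. The edgeR difference was −10.52 ± 0.18 against monocyte- or macrophage-like (adjusted p = 9.9e-65) and −9.01 ± 0.38 against neutrophil-like cells (adjusted p = 7.1e-37). Against B cell-like cells, with 4 UMIs in all, it was −2.56 ± 0.98 (adjusted p = 0.016), and that call was lost with shared barcodes left out (−1.73), without TMM (−1.95) and without the YKL-5-124 (−2.40) or combination library (−2.04). Within the monocyte- or macrophage-like class, cluster 7 (led by Lyz2, F13a1 and Chil3) was at 379 CPM over all libraries, cluster 11 (Treml4, Ear2) at 202 and cluster 12 (C1qa, C1qb) at 107. Fibroblast-like cells were at 122 CPM from 27 UMIs in 41 cells.

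Ddx41 was present in every class. Tumour-like cells were at 40.4, 36.7, 46.5 and 40.9 CPM, and B cell-like cells at 97.7, 92.3, 130.1 and 111 CPM, with no overlap. The edgeR difference was −2.07 ± 0.12 (adjusted p = 2.2e-27). Those against monocyte- or macrophage-like (−1.33 ± 0.12, adjusted p = 2.5e-17) and T cell-like cells (−1.19 ± 0.12, adjusted p = 1.5e-14) were called, but came to −0.83 and −0.89 in DESeq2 and −0.50 and −0.52 without TMM. Against NK cell-like (−0.95 ± 0.17) and neutrophil-like cells (−0.97 ± 0.26) the differences were just under 2-fold.

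**Figure D2:**
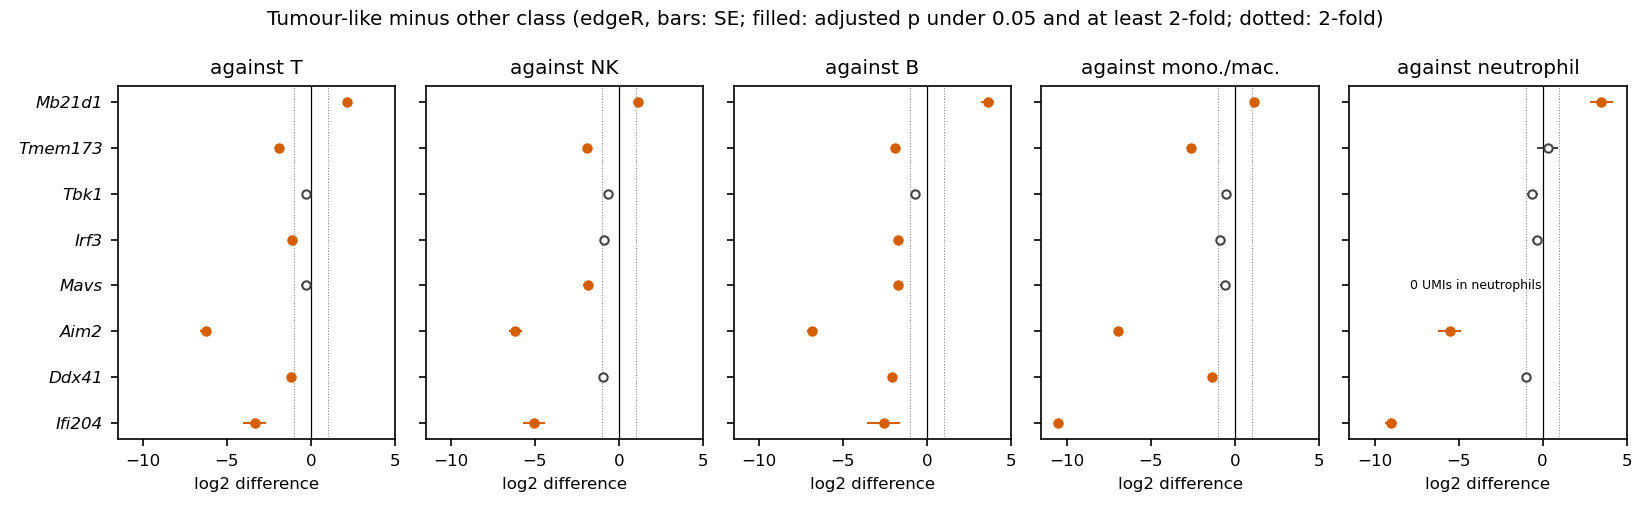
Log2 difference of the 8 tested genes (y axis) between tumour-like cells and each of 5 classes (x axis of each panel, positive where tumour-like cells are higher), from edgeR over 4 libraries. Points are estimates, bars are SE, filled points passed an adjusted p under 0.05 and 2-fold, and dotted lines mark 2-fold. Mb21d1 is to the right in every panel, Aim2 and Ifi204 are to the left in every panel, and Tbk1 stays within 2-fold. Mavs against neutrophil-like cells is not drawn, since that class had 0 UMIs.

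Counted by class, 7 of the 8 tested genes were called against B cell-like cells (1 higher and 6 lower in tumour-like cells), where 52.9% of all genes were called, 32.3% higher and 20.5% lower. Against T cell-like cells 6 were called (1 higher, 5 lower; 52.8% of all genes, 32.2% higher and 20.6% lower), and against NK cell-like cells 5 (1 higher, 4 lower; 52.4%, 33.2% and 19.2%). Against monocyte- or macrophage-like cells 5 were called (1 higher, 4 lower; 57.9%, 32.2% and 25.7%) and against neutrophil-like cells 4 (2 higher, 2 lower; 67.1%, 42.9% and 24.2%). A call was thus common among all genes. The shares of members called lie near or below the background against monocyte- or macrophage-like, NK cell-like and neutrophil-like cells. The median log2 difference of the 8 genes was −1.80, −1.16, −1.41, −1.10 and −0.47 against B, T, NK, monocyte- or macrophage- and neutrophil-like cells, beside 0.26, 0.24, 0.30, 0.16 and 0.79 over all genes tested. With shared barcodes left out, 6, 6, 6, 6 and 4 genes were called in that order.

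For single genes, the differences without shared barcodes were as follows, beside those given above for Mb21d1 and Irf3. Tmem173 was at −2.11, −2.17, −2.15 and −2.84 against B, T, NK and monocyte- or macrophage-like cells, all called. Aim2 lay between −6.69 and −5.28 and was called against all 5 classes. Ddx41 was called against B (−2.08), T (−1.21) and monocyte- or macrophage-like cells (−1.33), and Mavs against B (−1.53) and NK cell-like cells (−1.75). These are the classes against which both were called with all cells, apart from Mavs against neutrophil-like cells, which was also called. Ifi204 stayed called against 4 classes, at −9.64 against monocyte- or macrophage-like and −8.13 against neutrophil-like cells, and Tbk1 was called against none.

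The pathway around these genes was described with 8 lists. Their counts stand beside the shares of all genes: against monocyte- or macrophage-like cells 32.2% were called higher and 25.7% lower in tumour-like cells, with a median log2 difference of 0.16. For the STING partners and regulators the medians lie within the shift that scaling makes. The list was mixed: of 19 tested genes, 4 were higher and 7 lower in tumour-like than in monocyte- or macrophage-like cells (median −0.49), and 2 and 7 against T cell-like cells (−0.49), where 32.2% of all genes were higher and 20.6% lower. Irf7, the interferon-inducible relative of Irf3, was at 3.69 to 4.75 CPM in tumour-like and 202 to 261 CPM in monocyte- or macrophage-like cells (−6.64 ± 0.12) and was lower against all 5 classes. Ikbke, the kinase related to Tbk1, was at 0.421 to 0.857 CPM, against 31.5 to 46.7 CPM in T cell-like cells (−6.53 ± 0.25). Nlrc3, which restrains STING, was lower against 4 classes. Trim32, a ubiquitin ligase reported to act on STING, went the other way, at 59.3 to 75.4 CPM against at most 7.61 CPM in any library of the 5 classes, and was called higher against all 5 (2.85 ± 0.20 to 4.20 ± 0.24). It was picked out after its values were seen.

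On the RNA side, 13 of 14 genes were lower in tumour-like than in monocyte- or macrophage-like cells (median −2.44), 12 against neutrophil-like, 10 against T cell-like, 9 against B cell-like and 8 against NK cell-like cells. Of all genes 25.7%, 24.2%, 20.6%, 20.5% and 19.2% were lower in these comparisons. The 2 RNA receptors that signal through Mavs differed from each other. Ddx58, which encodes RIG-I, was at 1.29 to 2.29 CPM in tumour-like cells and lower against all 5 classes, by −5.34 ± 0.37 to −4.49 ± 0.22. Ifih1, which encodes MDA5, was at 28.1 to 37.1 CPM, higher than in B cell-like (2.39 ± 0.31) and NK cell-like cells (1.31 ± 0.30), lower than in monocyte- or macrophage-like cells (−1.24 ± 0.13) and not called against T cell-like (0.46 ± 0.18) and neutrophil-like cells (−0.42 ± 0.34). The RNA-activated synthetases Oas1a and Oas2 were lower against 5 and 4 classes.

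Of 8 tested genes of the AIM2 inflammasome list, 8 were lower in tumour-like than in monocyte- or macrophage-like and neutrophil-like cells, 5 than in B and T cell-like cells and 4 than in NK cell-like cells. Of all genes 25.7%, 24.2%, 20.5%, 20.6% and 19.2% were lower against monocyte- or macrophage-, neutrophil-, B, T and NK cell-like cells. Over the 5 comparisons edgeR called 30 lower and 0 higher (0 at an unadjusted p under 0.05, 0 in DESeq2), with medians of −7.49 against monocyte- or macrophage-like and −3.38 against T cell-like cells. Casp1, the inflammasome protease, was at 0.466 to 1.26 CPM in tumour-like and 103 to 129 CPM in monocyte- or macrophage-like cells (−8.08 ± 0.19). Pycard, the adaptor between Aim2 and Casp1, was at 6.71 to 8.39 against 206 to 344 CPM (−6.03 ± 0.18). Casp4, which also cleaves gasdermin D, was at 0.127 to 0.286 CPM in tumour-like and 39.1 to 44.0 CPM in monocyte- or macrophage-like cells and was lower against all 5 classes. Nlrc4, the sensor of another inflammasome, did not pass the filter and is named after its values were seen. It had 153 UMIs in tumour-like cells and 0 in NK cell-like and neutrophil-like cells. In CPM without TMM it was at least 3.69-fold and 2.62-fold higher in tumour-like cells. The second fold is about the size of the log2 shift of 1.36 that scaling makes against neutrophil-like cells. Of the PYHIN relatives 10 of 10 were lower against monocyte- or macrophage-like (median −7.67), 9 against B cell-like (−7.75) and 9 against T cell-like cells (−7.82). Mndal, Ifi209 and Ifi203 were each at 1.68 CPM or less in tumour-like cells, and at 137 to 182, 114 to 171 and 89.0 to 130 CPM in monocyte- or macrophage-like cells. Against neutrophil-like cells 7 were lower and Ifi213 higher (1.63 ± 0.62), where 24.2% of all genes were lower and 42.9% higher.

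Nucleases and editors were split. Against monocyte- or macrophage-like cells 5 of 10 were lower and 1 higher (median −1.06), beside 25.7% and 32.2% of all genes, and DESeq2 called 3 lower. Samhd1, which depletes deoxynucleotides, was at 35.9 to 46.3 CPM in tumour-like and 673 to 862 CPM in monocyte- or macrophage-like cells (−4.99 ± 0.14). Pld4, an exonuclease of the endolysosome, was at 0.636 to 1.12 against 475 to 639 CPM (−10.04 ± 0.14). Rnaseh2b, a subunit of the RNase that removes ribonucleotides from DNA, was at 130 to 138 CPM and higher against all 5 classes, by 1.49 ± 0.12 to 4.43 ± 0.42. Among 14 other DNA binders, 5 were higher and 2 lower against monocyte- or macrophage-like cells (median 0.81). The 5 higher are near the 32.2% of all genes, DESeq2 called 9 higher, and the median is no larger than the shift of 0.82 that scaling makes. Hmgb2, a chromatin protein abundant in dividing cells, was at 2409 to 2548 CPM and higher against 4 classes, while the Z-nucleic acid sensor Zbp1, at 12.6 to 17.1 CPM, was lower against all 5, by −4.08 ± 0.11 to −1.91 ± 0.18. Lrrfip1 was lower against 4 classes.

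Of the 9 listed genes of endosomal receptors, 5 passed the filter on low counts. These 5 were lower against monocyte- or macrophage-like (median −6.68), B cell-like, T cell-like and neutrophil-like cells, and 4 of them against NK cell-like cells, and 0 were higher by edgeR (0 at an unadjusted p under 0.05, 0 in DESeq2). The shares of all genes called lower were 25.7%, 20.5%, 20.6%, 24.2% and 19.2% in these comparisons. Irf5 and Unc93b1, the transcription factor and the chaperone of these receptors, were at 1.21 to 2.29 and 6.29 to 8.77 CPM. Among the genes that did not pass, named after their values were seen, Tlr3, a receptor for double-stranded RNA, had 90 UMIs in tumour-like cells and 0 in T cell-like and neutrophil-like cells, at least 5.62-fold and 1.54-fold higher. Ticam1, its adaptor, had 85 UMIs against 0 in neutrophil-like cells (at least 1.45-fold higher). These folds are of CPM without TMM. Those against neutrophil-like cells, 1.54 and 1.45, are smaller than the log2 shift of 1.36 that scaling makes there. They hold in CPM alone. Tlr8 had 0 UMIs in tumour-like and 65 in monocyte- or macrophage-like cells. Tlr7, a receptor for single-stranded RNA, had a median of 0.135 CPM against 40.2 CPM in monocyte- or macrophage-like cells. Of 8 tested output genes edgeR called 5 lower and 0 higher against monocyte- or macrophage-like cells (median −2.88), with 0 higher at an unadjusted p under 0.05 and 0 in DESeq2. The list was mixed against B cell-like (3 higher, 4 lower, median −0.48) and NK cell-like cells (2 higher, 3 lower, median −0.26), and had 1 higher and 5 lower against T cell-like and 5 lower against neutrophil-like cells. Over all genes the shares called higher were 32.3% (B), 33.2% (NK), 32.2% (T) and 42.9% (neutrophil). Those called lower were 20.5%, 19.2%, 20.6% and 24.2%. Ifit3, Isg15 and the chemokine Ccl5 were lower against all 5 classes. Against monocyte- or macrophage-like cells the differences were −6.22 ± 0.36, −4.26 ± 0.25 and −3.42 ± 0.38. Cxcl10, a chemokine for CXCR3 receptors, was at 11.3 to 24.2 CPM in tumour-like cells, lower than in monocyte- or macrophage-like (−2.65 ± 0.26) and T cell-like cells (−1.21 ± 0.33) and higher than in B cell-like cells (3.18 ± 0.97). Ifnb1, interferon beta itself, had 0 UMIs in the 6 classes. With shared barcodes left out, the counts of these 8 lists moved by at most 2 genes in either direction of any comparison. The STING partners against neutrophil-like cells went from 4 higher and 5 lower to 5 higher and 7 lower.

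**Figure D3:**
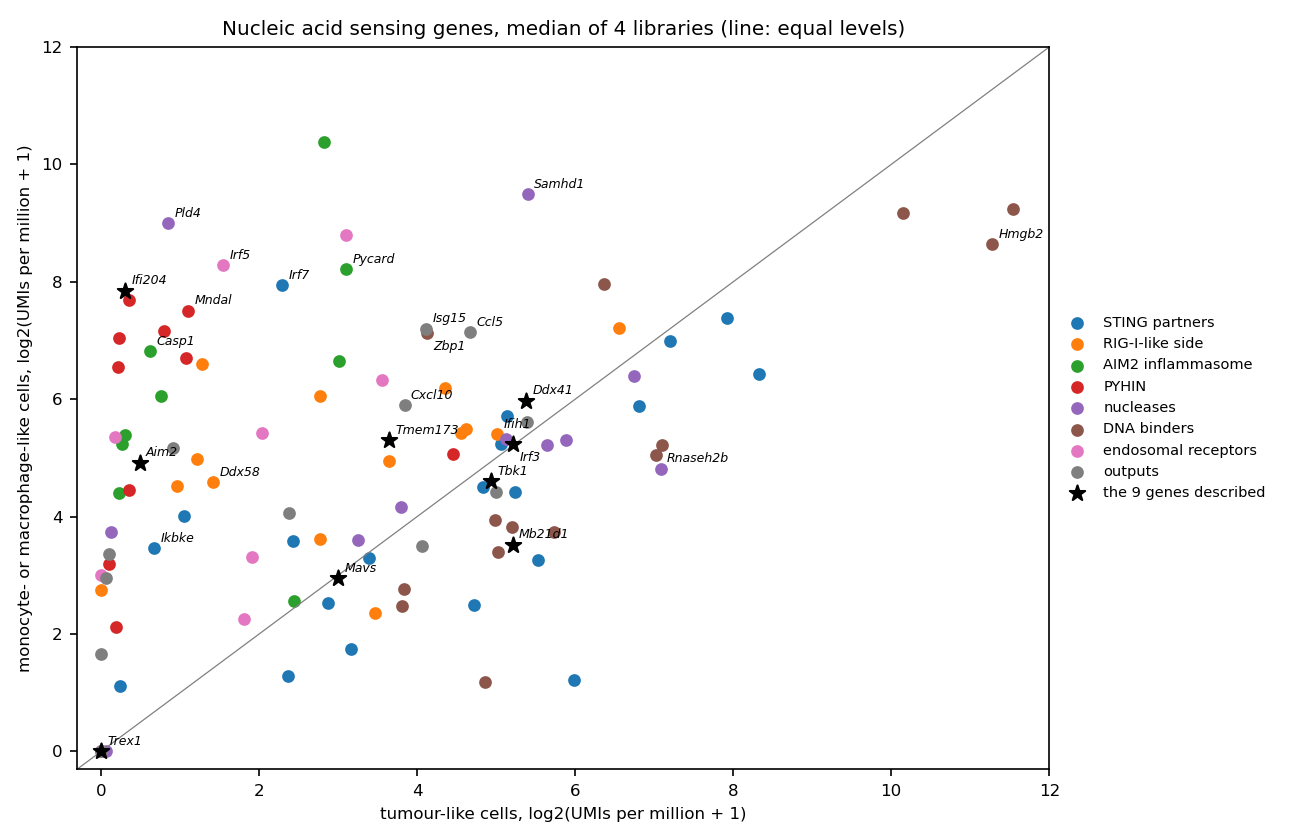
Each point is 1 gene of the pathway lists (colours) or of the 9 genes described (stars), at the median level of 4 libraries in tumour-like cells (x axis) and in monocyte- or macrophage-like cells (y axis), both as log2(CPM + 1). The line marks equal levels. Most PYHIN and AIM2 inflammasome genes lie far above the line, Mb21d1, Rnaseh2b and Hmgb2 lie below it, and Tbk1, Irf3 and Mavs lie near it.

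Each treated library was then set against control. With 1 library per group there is no test: a gene counted as past 1.5-fold on log2(CPM + 10), if its mean over the libraries was at least 10 CPM, and intervals are exact conditional 95% intervals that cover counting error only. The 3 comparisons share the control library. Of 54 pairs of gene and class, 33 were measured. Of these 4 were past 1.5-fold with anti-PD-1 (1 higher, 3 lower), 5 with YKL-5-124 (2 higher, 3 lower) and 2 in the combination (both higher). Over all genes and the 6 classes 11.2% of pairs were past it with anti-PD-1 (6.25% higher, 4.99% lower), 10.9% with YKL-5-124 (5.50% and 5.36%) and 10.9% in the combination (6.83% and 4.12%). The members' shares, 12.1%, 15.2% and 6.06%, are near these backgrounds.

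In tumour-like cells none of the 5 measured genes was past 1.5-fold in any treated library, where 0.448% (anti-PD-1), 0.392% (YKL-5-124) and 1.47% (combination) of all measured genes were. The Mb21d1 ratio to control was 0.87 (0.73 to 1.03), 1.03 (0.88 to 1.20) and 1.09 (0.93 to 1.27), so a change of 1.5-fold lies outside each counting interval. With shared barcodes left out these were 0.81 (0.61 to 1.08), 1.08 (0.85 to 1.36) and 0.92 (0.70 to 1.20), and the first then includes a 1.5-fold decrease. For Tmem173 the ratios were 0.80 (0.59 to 1.08), 0.99 (0.76 to 1.30) and 0.88 (0.66 to 1.17), and without shared barcodes 0.65 (0.35 to 1.17), 0.90 (0.56 to 1.45) and 0.92 (0.54 to 1.54). Irf3 and Ddx41 stayed between 0.91 and 1.15. Tbk1 was above control in all 3, at 1.32 (1.09 to 1.60), 1.37 (1.14 to 1.64) and 1.28 (1.06 to 1.55), and the 1 control library, at 22.8 CPM, was the lowest. With shared barcodes left out its ratios were 1.37 (1.00 to 1.87), 1.22 (0.92 to 1.63) and 1.28 (0.94 to 1.75). Of 138 measured comparisons of pathway genes in tumour-like cells 2 were past 1.5-fold, both of Ccl5, at 38.2 CPM with anti-PD-1 and 33.6 in the combination against 15.6 in control. Ccl5 was at a median of 1435 CPM in free RNA and at 5015 to 33597 CPM in T and NK cell-like libraries, and the part of free RNA in this difference was not tested.

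In monocyte- or macrophage-like cells, Ddx41 was past 1.5-fold with anti-PD-1, at 38.2 CPM against 73.4 in control, a ratio of 0.52 (0.34 to 0.77), where 6.45% of all genes were past it (7.45% with YKL-5-124, 6.35% in the combination). It was lower in each of the 3 clusters of this class (7, 11 and 12), at 55.1 against 97.7, 46.0 against 64.2 and 23 against 62.2 CPM. Those ratios were 0.56 (0.30 to 1.04), 0.72 (0.29 to 1.71) and 0.37 (0.17 to 0.76), so the interval leaves out 1 in cluster 12 alone. The 1 control library was the highest in each cluster. The ratio of the class was 0.54 (0.36 to 0.81) without shared barcodes. Tmem173 was above control in every treated library of this class, at ratios of 1.37 (0.83 to 2.28), 1.61 (1.07 to 2.49) and 1.31 (0.87 to 2.04), none past the rule. Ifi204 in the combination had a ratio of 1.32 (1.13 to 1.53) and Aim2 of 1.61 (1.01 to 2.64), and without shared barcodes 1.36 (1.17 to 1.59) and 1.60 (1.01 to 2.64). By cluster the Aim2 ratio was 5.12 (1.33 to 43.7) in cluster 7, from 2 control UMIs. It was 1.04 (0.50 to 2.37) in cluster 11 and 1.43 (0.69 to 3.16) in cluster 12. The clusters that make up the class differed in share, with cluster 7 giving 71 of 254 cells in control and 280 of 664 in the combination. Within cluster 7 Ifi204 was at 437.9 CPM in control and 461.2 in the combination, within cluster 11 at 222.6 and 202.1 CPM, and within cluster 12 at 58.2 and 81.4 CPM. With YKL-5-124 its ratios in clusters 7, 11 and 12 were 0.68 (0.56 to 0.83), 0.87 (0.61 to 1.24) and 2.79 (1.84 to 4.37). With anti-PD-1 they were 0.80 (0.62 to 1.03), 0.91 (0.59 to 1.39) and 2.27 (1.44 to 3.65).

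**Figure D4:**
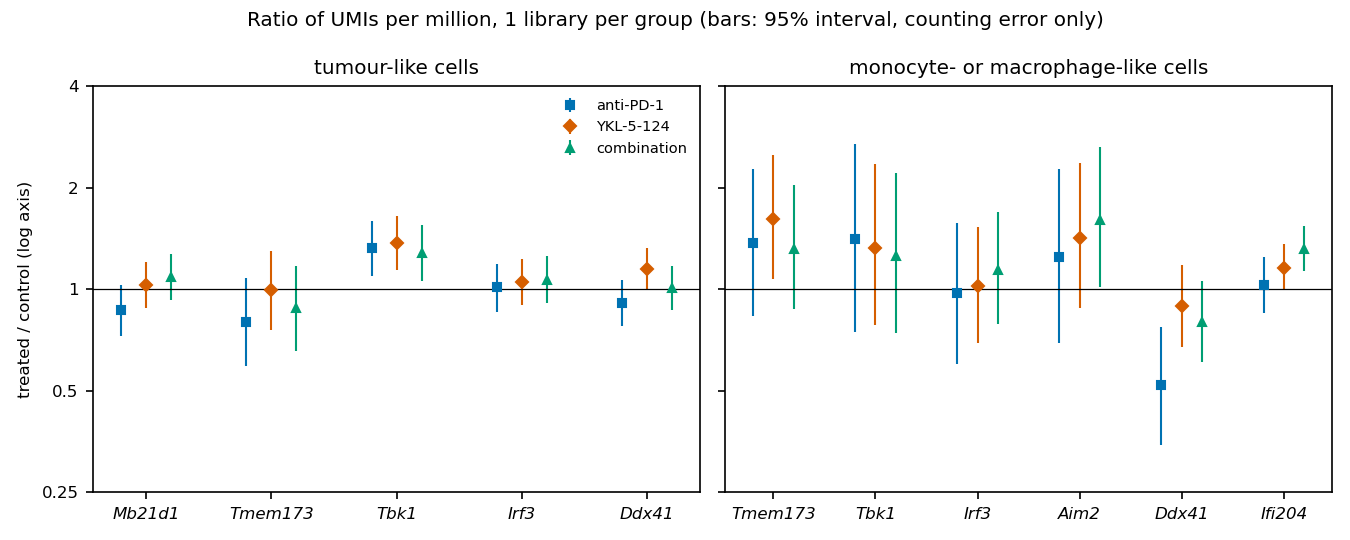
Ratio of the level in each treated library to control (y axis, log axis) for the genes measured (x axis) in tumour-like cells and in monocyte- or macrophage-like cells. Points are ratios of CPM, bars are 95% intervals for counting error only, and the line marks no difference. In tumour-like cells all ratios lie between 0.80 and 1.37, and Ddx41 with anti-PD-1 in monocyte- or macrophage-like cells (0.52) is the ratio farthest from 1.

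The other pairs past the rule rested on few UMIs. In NK cell-like cells Mb21d1 was above control in all 3 treated libraries, but control had 1 UMI and the others 8, 9 and 9, with intervals such as 1.04 to 345 for anti-PD-1. Aim2 was at 34.1 CPM with YKL-5-124 against 16.6 in control (17 and 9 UMIs, ratio 2.06, 0.87 to 5.23), and Irf3 at 28.6 with anti-PD-1 against 62.6 CPM (ratio 0.46, 0.24 to 0.85). The NK backgrounds were 12.5%, 13.2% and 11.9%. In neutrophil-like cells, 88 in control and 645 with YKL-5-124, 49.8%, 46.7% and 46.8% of all genes were past the rule. Ifi204 was lower with YKL-5-124, at 40.2 against 115 CPM (0.35, 0.18 to 0.77). A granule-rich cluster (Ngp, Camp, Ltf) gave 238 of those 645 cells and 0 of 88 in control, and within the main neutrophil cluster 9 Ifi204 was at 53.8 CPM with YKL-5-124 against 124 in control. Tbk1 and Irf3 were also lower with YKL-5-124, from 3 UMIs each in control, and Ddx41 had 2 UMIs in control, 0 with anti-PD-1 and 16 in the combination. In T cell-like (3.36%, 3.57% and 3.52% of all genes) and B cell-like cells (6.98%, 5.25% and 6.66%) none of the 9 genes was past the rule.

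Across the 19 clusters of at least 100 cells, the genes were not distributed alike. Pearson's r of log2(CPM + 10) was −0.03 between Mb21d1 and Tmem173, 0.73 between Tmem173 and Aim2 and 0.75 between Irf3 and Mavs. Of 10325 genes ranked, the most similar to Mb21d1 were Polr2j (r = 0.95), Ndufb6 (0.94) and Fancl (0.93), and to Ifi204 Mpeg1 (0.98), Gpr35 (0.97) and Cd68 (0.97). For Tmem173 they were Dock10 (0.91), Trim27 (0.88) and M6pr (0.88), and for Aim2 Stk24 (0.91), Susd3 (0.90) and B4galnt1 (0.89). For Tbk1 they were Slc4a2 (0.84), Sptlc1 (0.84) and Itfg1 (0.83), for Irf3 Dpf2 (0.93), Ddx24 (0.91) and Ccnt2 (0.90), for Mavs Pias4 (0.88), Ctu2 (0.87) and Bin1 (0.84), and for Ddx41 Dgkd (0.85), Sharpin (0.83) and Gm13012 (0.83). The clusters share the 4 libraries and differ in depth, and these values are descriptions.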

How the data were processed

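Each of the 4 libraries came as 1 matrix of raw UMI counts, deposited by the authors without restriction to cells. The submitters' processing notes list bcl2fastq with Cell Ranger, and a software version of 3.0.0 stands in the file headers. Those notes name hg19 although every gene ID is a mouse Ensembl ID, and the build behind the counts is not given in the sources here. Of 31053 IDs, 30934 were found in GENCODE M21.

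Kept barcodes had 500 or more UMIs, 300 or more genes and no more than 10% of UMIs from mitochondrial genes. The automatic cut of Scrublet took under 0.15% of cells per library, so the top-scoring cells, 0.8% per 1000 cells, were removed instead (60 to 138 per library). Clusters were made by the Leiden method (resolution 1, 2000 variable genes, 30 components, 15 neighbours, scanpy 1.11.5, leidenalg 0.10.2, Python 3.11.15). A class name needed 3 or more markers found in 10% of a cluster's cells and at 2-fold, without more markers of a different class among the 10 leading genes. 3 clusters (2333 cells) stayed unnamed. The 6 classes with 50 or more cells in each library entered the comparisons. UMIs summed per class and library were tested with edgeR 4.0.16 (filterByExpr, TMM, class and library terms) in R 4.3.3, with DESeq2 1.42.0 as an alternative. The labels do not say that libraries come from separate animals, so p-values cover these 4 libraries alone. They measure the spread of the class sums that the class and library terms leave, in a single fit of the 6 classes.

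The members and lists were chosen with earlier results of these data known. All members are described. From each list the 3 called genes with the largest mean difference are named, plus Ikbke, Irf7, Pycard, Casp1, Ddx58, Ifih1, Samhd1, Zbp1, Ifnb1, Cxcl10, Ccl5 and Isg15, and for each member the 3 genes with the highest correlation. Intervals are 95% and, with the limit of 3 counts for a 0, cover counting error only. The edgeR step was tested on simulated counts. Alternatives covered scaling, filters, the library term, single libraries, cell filters, doublets, clustering, free RNA, pseudocounts and weighting. A planned cut at 5% mitochondrial UMIs was not run for the class tests or the ratios. Added after seeing the data were 4 more: cluster 1 counted as tumour-like, cluster 10 counted as T, shared barcodes left out, and the granule-rich neutrophil cluster left out.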

Additional observations from a re-analysis of the deposited data

How the results depend on the processing

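No paired analysis was possible because each treatment group has 1 library, so this concerns the treatment comparisons. The class comparisons take the cells of a library together through the library term, and without that term the calls of single genes changed for Ddx41 against neutrophil-like cells alone (−1.04, called). The 27 called differences of single genes gave 459 values under alternatives, of which 442 kept direction and call, 17 kept direction and lost the call, and 0 reversed. The lost calls not given above were Mb21d1 against monocyte- or macrophage-like cells at resolution 2 (1.00) and Mavs against neutrophil-like cells with doublets kept (0.27), at resolutions 0.5 (1.07) and 2 (0.94), and without the YKL-5-124 library, where a fold cannot be given. Of the 221 values of 13 differences that were not called, 19 were called in the same direction, all of Ddx41, Irf3 or Tmem173, and 11 reversed. In DESeq2 these were Tbk1 against monocyte- or macrophage-like (0.0066) and T cell-like cells (0.028) and Irf3 against neutrophil-like cells (0.27). Without TMM they were Tbk1 against monocyte- or macrophage-like (0.33), T cell-like (0.39) and neutrophil-like cells (0.79) and Irf3 against neutrophil-like cells (1.05, called higher). Also reversed there were Mavs against monocyte- or macrophage-like (0.23) and T cell-like (0.36) and Ddx41 against neutrophil-like cells (0.42). Tmem173 against neutrophil-like cells reversed to −0.42 with doublets kept, and was 1.69 and called higher without TMM. Without 1 library at a time, 6 to 7 genes were called against B cell-like, 4 to 6 against NK cell-like, 6 to 6 against T cell-like, 4 to 5 against monocyte- or macrophage-like and 3 to 5 against neutrophil-like cells.

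Over all genes, 61.1% of calls against B, 55.6% against monocyte- or macrophage-, 63.9% against neutrophil-, 63.4% against NK and 61.0% against T cell-like cells were higher in tumour-like cells. Without TMM these shares were 78.4%, 74.4%, 82.1%, 75.3% and 76.9%, and in DESeq2 68.8%, 68.0%, 71.6%, 70.8% and 68.5%.

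Pairs past 1.5-fold numbered 8 (anti-PD-1) and 4 (combination) with a pseudocount of 1 CPM, and 0, 1 and 1 (anti-PD-1, YKL-5-124 and combination) with 50 CPM. They numbered 7 with at least 1000 UMIs per cell (anti-PD-1), and 1 in the combination with cells weighted equally and 1 with doublets kept. Leaving out shallow tumour-like clusters was not run, since none had a median under the limit set. At these depths a gene with few UMIs in a class, such as Mb21d1 in B and NK cell-like cells, allows no statement on treatment.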

Other observations

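Interferon-induced and chemokine genes of the output list differed between libraries in monocyte- or macrophage-like cells. Of 8 measured, 5 were past 1.5-fold above control in the combination (median log2 ratio 0.74, beside 0.04 over all measured genes), 3 with YKL-5-124 (0.44, beside 0.05), and with anti-PD-1 2 were above and 1 below (−0.16, beside 0.02). Of all genes measured in this class 6.35%, 7.45% and 6.45% were past 1.5-fold in these 3 comparisons. In the combination these were Ifit1 (ratio 3.06), Ifit2 (2.93), Ifit3 (3.20), Rsad2 (1.86) and Cxcl10 (3.10). These ratios are of the whole class, whose clusters differed in share. In cluster 7 the ratios of Ifit1, Ifit2 and Rsad2 were 1.58 (0.66 to 4.58), 1.10 (0.41 to 3.72) and 0.96 (0.51 to 1.93). In cluster 12 they were 6.58 (2.88 to 18.5), 7.57 (2.42 to 38.2) and 14.1 (2.31 to 577), the last from 1 control UMI. Cluster 11 held at most 8 UMIs of each per library. In cluster 12, which carries complement C1q genes, Ifit3 was at 8.03, 16.7, 95.4 and 83.6 CPM and Cxcl10 at 46.2, 105, 86.0 and 193 CPM, in the library order of the report. In cluster 7 Ifit3 was at 50.4, 27.5, 37.2 and 82.6 CPM, and in cluster 11 at 4.28 to 32.2 CPM. Other interferon-induced genes went opposite ways in 2 clusters with YKL-5-124. In cluster 7, the largest of the class, they were below control: Isg15 at a ratio of 0.50 (0.39 to 0.64), Irf7 at 0.50 (0.42 to 0.60) and Usp18 at 0.54 (0.34 to 0.91). In cluster 12 they were above control, at 2.05 (1.47 to 2.88), 1.73 (1.21 to 2.52) and 2.49 (1.49 to 4.35). In cluster 11 their ratios were 1.26 (0.59 to 2.91), 1.06 (0.75 to 1.52) and 0.62 (0.11 to 4.24). Ccl5 in cluster 12 was at 112, 362, 564 and 186 CPM. These comparisons have 1 library per group and share the control, so none has a replicate check.

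A cluster of 15 B cell-like cells was led by Ifit3, Ifit3b and Serpina3g. It held 0 Mb21d1 UMIs and 1 Tmem173 UMI among 39776 UMIs.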
